A study of Mus musculus with 384 samples.

Results

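The 37 genes described here belong to the response that the transcription factor ATF4 directs when cells are short of amino acids or otherwise stressed. They were chosen by name, by function, though with earlier results of these data known. They comprise 7 regulators, 7 feedback and stress effectors, 2 secreted factors, 6 genes of serine and one-carbon synthesis, 3 other enzymes of amino acid metabolism, 6 transporters, and 6 genes of tRNA charging and export. All 37 were found among the 31617 genes of the count table.

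The study asked whether mouse formative stem (FS) cells, pluripotent cells propagated from the epiblast just before gastrulation, differ from epiblast stem cells (EpiSCs), which represent the later, primed phase. Single cells were sorted into 96-well plates and profiled by Smart-seq2, a full-length cDNA method without molecular identifiers. FS lines 5ar1 and 5ar2 were grown in AloXR, which contains activin A at 3 ng/ml, XAV939, a tankyrase inhibitor, at 2 μM, and BMS493, an inverse agonist of retinoic acid receptors, at 1 μM; EpiSC line AFX6 was grown in AFX, with 20 ng/ml activin A, Fgf2 and 2 μM XAV939; EpiSC line AF32 was grown in AF, with 20 ng/ml activin A and Fgf2. All media were based on N2B27, all lines grew on fibronectin, and no line was treated further or, by its labels, genetically altered. The labels name lines, not cultures or plates, so each line is 1 replicate and each EpiSC medium has 1 line. Line, medium and sorting plate therefore cannot be told apart, and any p-value measures the spread between 4 lines.

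In background terms, several kinases that sense uncharged tRNA, unfolded protein, viral RNA or haem deficiency phosphorylate the initiation factor eIF2. General translation then falls while translation of the Atf4 mRNA increases, so that ATF4 protein can increase without more of its mRNA. ATF4 pairs with C/EBP family proteins at composite DNA elements and activates genes that take up and make amino acids, charge tRNAs and, later, restrain the response itself. Serine synthesis, mitochondrial folate metabolism and amino acid uptake are also in demand in fast-dividing pluripotent cells, and transcripts of these genes can be abundant without an imposed stress. Neither demand nor stress was measured in these cells.

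Of 384 cells, 326 had at least 3000000 counts and were kept: 90 of 5ar1, 90 of 5ar2, 66 of AFX6 and 80 of AF32. Their totals ran from 3022666 to 6686007 counts, with line medians between 4401630 and 5069880. The median cell had counts for 11371 and 11567.5 genes in the FS lines and for 10328 and 10330.5 genes in AFX6 and AF32. Between 7 and 8 of 8 pluripotency genes were over 10 CPM (counts scaled to a total of 1000000) in every line, and 3 of the 4 endoderm genes found were under 1 CPM in all of them. Neural markers summed to 338 and 134 CPM in 5ar1 and 5ar2 and to 16.6 and 77.5 in AFX6 and AF32, with 1 of 4 over 10 CPM in each line. Fibroblast or feeder markers summed to 7.57, 40.7, 14.4 and 11.4 CPM in the same order, and streak and mesoderm markers to 62.0, 48.8, 8.26 and 50.6 CPM. The part of these other cell types in the results was not tested.

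Sequences upstream of some members are shown first, because the composite element that ATF4 and C/EBP proteins are known to bind is written in them. Promoters, from 250 bases before to 50 bases after an annotated start, were taken from RefSeq (GRCm38.p6) for the 30 members that had an entry; Eif4ebp1, Aldh1l2, Cth, Slc7a5, Slc7a3, Nars and Wars had none. The motif TGATGNAA was searched on both strands, where it reads TTNCATCA on the opposite strand. It was present in 11 of the 30 members, or 36.7%, against 4.51% of all 27025 genes with a promoter and 2.49% of the 7874 such genes that reached 10 CPM in a line. Members were chosen by name as genes of the ATF4 response, so this excess is not independent of how the list was made. The 11 are Atf3, Nupr1, Trib3, Chac1, Vldlr, Fgf21, Asns, Pck2, Slc7a11, Aars and Gars. In 10 of them a match lies before the start, and the match of Trib3 lies after it. Examples follow, each a stretch of 60 bases in the 5′ to 3′ direction of its gene, with the match in capitals; they cover an enzyme, an effector, a regulator, a transporter with matches on both strands, and variants of the free base.
Asns, chr6:7693210-7693269, minus strand: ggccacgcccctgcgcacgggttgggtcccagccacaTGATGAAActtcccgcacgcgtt
Chac1, chr2:119351023-119351082, plus strand: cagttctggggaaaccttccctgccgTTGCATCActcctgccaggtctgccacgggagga
Atf3, chr1:191183410-191183469, minus strand: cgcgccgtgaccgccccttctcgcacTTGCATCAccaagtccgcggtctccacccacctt
Slc7a11, chr3:50443636-50443695, minus strand: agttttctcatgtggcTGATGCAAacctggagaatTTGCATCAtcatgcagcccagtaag
Pck2, chr14:55540137-55540196, plus strand: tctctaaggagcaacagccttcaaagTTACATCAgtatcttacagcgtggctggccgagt
Gars, chr6:55037941-55038000, plus strand: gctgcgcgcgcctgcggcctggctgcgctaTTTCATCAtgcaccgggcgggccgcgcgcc

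The matches in these windows begin 23 bases before the start in Asns, 193 in Chac1, 110 in Atf3, 66 and 47 in Slc7a11, 103 in Pck2 and 30 in Gars. The same 8 letters as in Chac1 and Atf3, TTGCATCA, stand before the starts of Nupr1, Vldlr, Fgf21 and Aars. The median fitted log2 fold change of FS cells over EpiSCs was 0.93 for the 11 members with one and 0.88 for the 19 without. A match is a run of letters and was not tested for binding in these cells.

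**Figure D1:**
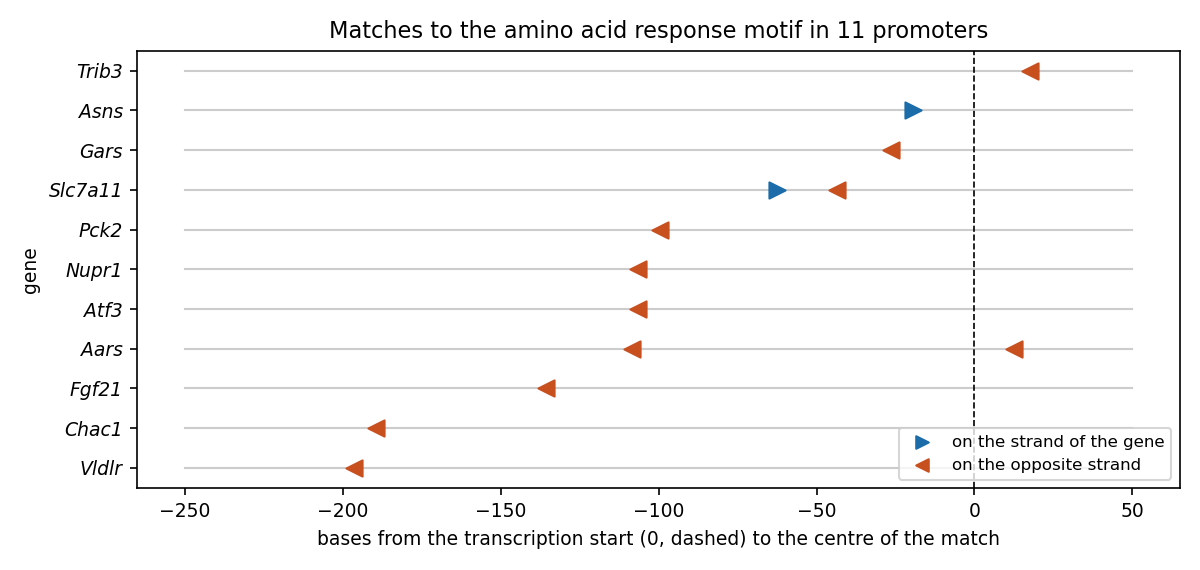
Position of each match to TGATGNAA in the promoters of the 11 members that hold one; the x axis gives bases from the annotated start to the centre of the match, grey lines are the searched windows from 250 bases before to 50 after the start, and arrows give the strand. All matches but that of Trib3 and 1 of 2 in Aars lie before the start.

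Transcripts of most members were more abundant in FS cells than in EpiSCs. Of the 33 members that reached 10 CPM in at least 1 line, 26 had both FS lines above both EpiSC lines, against 27.0% of all 10088 genes at that level. Ddit4 alone among them had both FS lines below both EpiSC lines, against a background of 27.9%, and the other 6 overlapped (Ddit3, Ppp1r15a, Vldlr, Asns, Slc3a2 and Aldh1l2). The median fitted log2 fold change over the 37 members was 1.00, against -0.01 over all 22606 genes tested, and 34 of 37 were fitted above 0; the exceptions were Ddit4, Gdf15 and Fgf21.

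No member passed the test. Counts were summed per line and compared by edgeR's quasi-likelihood test with Benjamini-Hochberg adjustment over all genes, and a gene was called when its adjusted p was under 0.05 and its log2 fold change exceeded 1.4 in either direction. It called 0 of 22606 genes (0%), and the smallest adjusted p of any gene or member was 0.190. At an unadjusted p under 0.05, 22 of 37 members were higher in FS cells, against 9.06% of all genes, and 0 members were lower, against 7.02%. With a line fewer in the fit, the 22 became 11 without 5ar1, against 2.28% of all genes, 14 without 5ar2, against 2.64%, 24 without AFX6, against 9.46%, and 27 without AF32, against 12.1%. DESeq2 on the same sums called 5 of 37 members as higher in FS cells (Atf5, Trib3, Sesn2, Chac1 and Mthfd2), against 3.93% of the 22277 genes it gave an adjusted p, and limma on mean log2 CPM called 0 genes. On simulated counts with 8-fold changes, the edgeR fit recovered 200 of 200 changed genes at a dispersion of 0.05, with 5 false calls. At 0.653, the common dispersion fitted here, it recovered 0 of 199, with 0 false calls. Every simulated gene was given the same dispersion, so these counts do not give the power for members whose lines lay closer together.

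**Figure D2:**
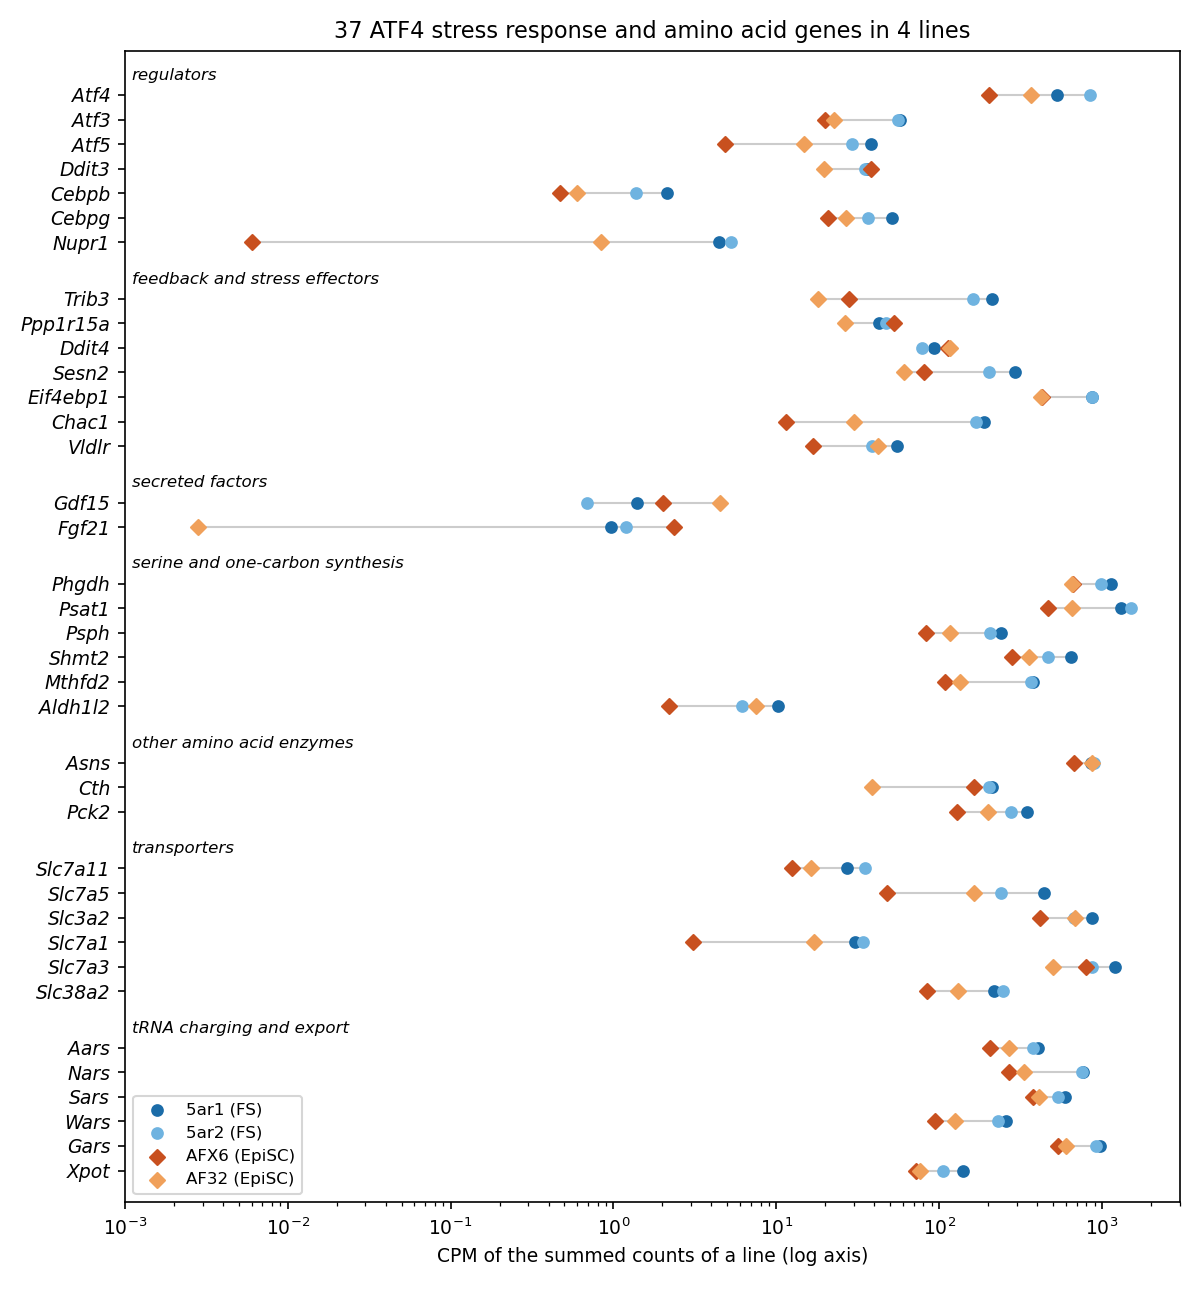
CPM of each of the 37 members in the summed counts of each line, on a log axis, grouped by role; circles are the FS lines, diamonds the EpiSC lines. FS circles stand to the right of both diamonds for most members, Ddit4 is the reverse, and Asns, Slc3a2, Vldlr, Ddit3 and Ppp1r15a overlap.

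Among the regulators, Atf4 itself (ENSMUSG00000042406, chr15:80255184-80257541, plus strand, GRCm38) was measured at 531 and 840 CPM in the FS lines 5ar1 and 5ar2 and at 203 and 366 CPM in AFX6 and AF32. Its FS mean was 686 ± 219 CPM and its EpiSC mean 284 ± 115 (SD, n = 2 lines each), 2.41-fold apart (log2 fold change 1.27, SE 0.39, edgeR adjusted p = 0.243). The lines did not overlap, and 5ar2 stood highest. Since ATF4 is controlled largely by translation, the transcript is no measure of the protein. Atf3, an early ATF4 target that encodes a bZIP factor, was at 57.6 and 55.8 CPM in the FS lines and at 19.8 and 22.6 in AFX6 and AF32, 2.67-fold apart with little spread within a kind (log2 fold change 1.41, SE 0.20). Atf5, a related bZIP factor that is also controlled by upstream reading frames, was at 38.3, 29.1, 4.81 and 14.9 CPM in the order 5ar1, 5ar2, AFX6, AF32.

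Cebpg, which encodes a C/EBP partner of ATF4, was at 51.3, 36.7, 20.9 and 26.7 CPM in that order. Ddit3, which encodes the pro-apoptotic factor CHOP, did not separate the kinds: it was at 36.0, 34.9, 38.3 and 19.6 CPM, so AFX6 stood above both FS lines and AF32 below. Cebpb and Nupr1, which encode a C/EBP factor and a small stress-induced chromatin protein, stayed under 10 CPM in every line. Nupr1 was at 4.42 and 5.25 CPM in FS cells, 0.838 in AF32 and 0.00601 in AFX6, where it rested on 2 counts in 66 cells. Cebpb ran from 0.472 to 2.14 CPM, lower in both EpiSC lines.

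Among members of at least 10 CPM in a line, the widest differences were those of Chac1 and Trib3, both feedback and stress effectors. Trib3 (ENSMUSG00000032715, chr2:152337422-152344032, minus strand, GRCm38), which encodes a pseudokinase that restrains ATF4 and AKT, was at 211 and 162 CPM in 5ar1 and 5ar2 and at 27.8 and 17.9 CPM in AFX6 and AF32. The means were 186 ± 34.5 and 22.8 ± 6.98 CPM (SD, n = 2 lines each), 8.15-fold apart (log2 fold change 3.01, SE 0.33). Chac1 (ENSMUSG00000027313, chr2:119351229-119354381, plus strand), which encodes an enzyme that degrades glutathione, was at 188 and 169 CPM in FS cells and at 11.4 and 29.9 in AFX6 and AF32, 8.64-fold apart (log2 fold change 3.11, SE 0.52, or 3.93 without AF32). For both genes the lower FS line exceeded the higher EpiSC line over 5-fold, by 5.83-fold for Trib3 and 5.64-fold for Chac1.

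Sesn2, which encodes a leucine sensor that lowers mTORC1 activity, was at 291, 202, 81.1 and 60.7 CPM in 5ar1, 5ar2, AFX6 and AF32, a 3.48-fold difference of the means. Eif4ebp1, which encodes the translation repressor 4E-BP1, was nearly equal within each kind: 874 and 864 CPM in FS cells against 427 and 422 in EpiSCs, or 2.04-fold. Ddit4, which encodes the mTORC1 inhibitor REDD1, went the other way, at 92.3 and 78.9 CPM in FS cells and 113 and 117 in EpiSCs (log2 fold change -0.44, SE 0.18). Ppp1r15a, which encodes the eIF2 phosphatase subunit GADD34 that ends the response, was at 43.0 and 47.2 CPM in FS cells, between 52.6 in AFX6 and 26.3 in AF32. The lipoprotein receptor gene Vldlr also overlapped, at 54.8, 38.9, 16.8 and 42.4 CPM. Of this group, then, 4 of 7 members stood higher in both FS lines, 1 lower, and 2 overlapped. The shares of all genes at 10 CPM in a line were 27.0% higher and 27.9% lower.

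The secreted factors Gdf15 and Fgf21, widely used as plasma markers of the response, were close to absent. Gdf15 ran from 0.690 CPM in 5ar2 to 4.53 in AF32, and Fgf21 from 0.00281 CPM in AF32, a single count, to 2.36 in AFX6. In AF32, the highest 10% of cells held 100% of the Gdf15 counts, and 73 of 80 cells had no count.

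Serine and mitochondrial one-carbon synthesis stood higher in FS cells at 5 of 6 steps, against 27.0% of all genes at 10 CPM in a line. In the pathway from glycolysis to serine, Phgdh was at 1140 and 989 CPM in FS cells and 660 and 652 in AFX6 and AF32, Psat1 at 1313 and 1511 against 468 and 658, and Psph at 241 and 205 against 83.0 and 117. The folds of the means were 1.62, 2.51 and 2.22, and no line of one kind crossed into the other. Shmt2, which moves a carbon from serine to mitochondrial folate, was at 644, 465, 278 and 356 CPM in 5ar1, 5ar2, AFX6 and AF32. Mthfd2, the next enzyme, was at 379 and 368 CPM against 108 and 135, 3.07-fold apart (log2 fold change 1.61, SE 0.18). Aldh1l2, a later mitochondrial folate enzyme, was sparse and overlapped, at 10.3, 6.12, 2.19 and 7.48 CPM.

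Asns, the asparagine synthetase gene and a textbook ATF4 target, hardly separated the kinds. It was at 860 and 890 CPM in FS cells and at 673 in AFX6 and 871 in AF32, so AF32 stood between the FS lines (log2 fold change 0.18, SE 0.18). Pck2, the mitochondrial phosphoenolpyruvate carboxykinase gene, was at 347, 278, 129 and 198 CPM, 1.91-fold apart. Cth, which makes cysteine from cystathionine, was at 212 and 202 CPM in FS cells, 165 in AFX6 and 38.6 in AF32. Its 2.04-fold difference of the means rested on AF32: the fitted log2 fold change was 1.00 with all lines, 0.30 without AF32 and 2.44 without AFX6.

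The transporters stood higher in both FS lines for 5 of 6 genes, against 27.0% of all genes at 10 CPM in a line. Slc7a5, the large neutral amino acid exchanger LAT1, was at 443 and 239 CPM in 5ar1 and 5ar2 and at 47.9 and 164 CPM in AFX6 and AF32. Its partner chain Slc3a2 was at 872, 673, 418 and 684 CPM and overlapped, because AF32 passed 5ar2. The cationic amino acid transporters Slc7a1 and Slc7a3 were at 30.2, 33.8, 3.06 and 17.0 CPM and at 1193, 865, 798 and 503 CPM. Slc38a2, the neutral amino acid carrier SNAT2, was at 218 and 246 CPM against 84.6 and 131, 2.15-fold apart. Slc7a11, the cystine importer xCT, was at 27.2 and 35.2 CPM against 12.5 and 16.4, 2.16-fold apart. Some of these values moved when an EpiSC line was left out. The log2 fold change of Slc7a5 was 1.69 with all lines, 2.79 without AF32 and 1.07 without AFX6, that of Slc7a1 was 1.69, 3.35 and 0.93, and that of Atf5 was 1.78, 2.77 and 1.19 in the same order.

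The tRNA synthetase genes Aars, Nars, Sars, Wars and Gars and the tRNA exporter gene Xpot all stood higher in both FS lines. Of all genes at 10 CPM in a line, 27.0% did. Nars differed most, at 761 and 750 CPM in FS cells and 269 and 334 in AFX6 and AF32, 2.51-fold apart (log2 fold change 1.32, SE 0.17). Wars followed at 258 and 230 CPM against 94.2 and 124. The folds of the means of Aars, Gars, Xpot and Sars were 1.65, 1.67, 1.65 and 1.42. Each of these 6 had an unadjusted edgeR p under 0.05, against 9.06% of all genes at that limit and higher in FS cells. None had an adjusted p under 0.05.

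Levels can be compared between genes only per length, as TPM (length-scaled shares of all transcripts) over the merged exons of a gene. On that scale Phgdh led in 5ar1, 5ar2 and AFX6, at 1344, 1111 and 727 TPM, and Asns led in AF32 at 904 TPM. In 5ar1, Eif4ebp1 at 1166 TPM came next, with Slc7a3, Asns, Gars and Psat1 between 905 and 924. Slc7a11 was at 2.45 to 7.07 TPM over the 4 lines. Aars, Aldh1l2, Cebpb and Psph share over 10% of their annotated exon bases with another gene, so their levels are less certain. Atf4 was at 995 TPM in 5ar2, and the other regulators were under 80 TPM in all lines.

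Of 33 members of at least 10 CPM in either FS line, 0 were over 2-fold higher in 5ar2 (1.35% of 9119 genes) and 0 over 2-fold lower (2.57%), counts near those low backgrounds. The largest ratios among these 33 were those of Slc7a5, 1.86-fold higher in 5ar1, Aldh1l2, 1.68-fold higher in 5ar1, and Atf4, 1.58-fold higher in 5ar2. The EpiSC lines also differ in medium, and the median log2 ratio of AF32 over AFX6 was 8.77 for 4 genes of chromosome Y. The part of either difference in the ratios below was not tested. Of 32 members, 5 were over 2-fold higher in AF32 than in AFX6 (11.3% of 9662 genes) and 2 over 2-fold lower (7.14%), shares near those of all genes.

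The 5 were Slc7a1 at 5.55-fold, Slc7a5 at 3.42-fold, Atf5 at 3.09-fold, Chac1 at 2.62-fold and Vldlr at 2.52-fold higher in AF32. Slc7a5 lies on chromosome 8, where the median log2 ratio of AF32 over AFX6 was 0.48. With the median of its chromosome subtracted, each of the 7 ratios stayed over 2-fold in its direction. The part of chromosome 8 in the Slc7a5 ratio was not tested. The 2 were Cth, 4.27-fold higher in AFX6 (95% exact interval 4.19 to 4.35, which covers counting error only), and Ppp1r15a, 2.00-fold higher in AFX6 and so at the limit. With 1 line on each side, these ratios compare 2 lines and have no replicate check.

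Behind line sums, cells differed in 2 ways. Atf4 and Asns were present in nearly every cell. Atf4 was over 10 CPM in 90 of 90, 90 of 90, 64 of 66 and 80 of 80 cells of 5ar1, 5ar2, AFX6 and AF32, with medians of 515, 817, 170 and 308 CPM. Asns had medians of 754, 871, 583 and 874 CPM and was over 10 CPM in 98.9%, 100%, 95.5% and 97.5% of cells.

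Trib3 and Chac1 instead were near 0 in some FS cells and most EpiSC cells, and ranged widely in the others. The lower and upper quartiles of Trib3 were 32.7 and 345 CPM in 5ar1 and 32.8 and 257 CPM in 5ar2. Trib3 was over 10 CPM in 80.0% of 5ar1 cells (95% exact binomial interval 70.2 to 87.7) and 83.3% of 5ar2 cells (74.0 to 90.4), and in 21.2% of AFX6 cells (12.1 to 33.0) and 18.8% of AF32 cells (10.9 to 29.0). The intervals cover only counting of cells within a line and not the spread between lines, so they are no test between the kinds. Trib3 already had a wide difference between the kinds in these same counts, so the gap in percentages is not separate support. In the median EpiSC cell Trib3 was at 0.184 CPM in AFX6 and 0.305 in AF32, while the highest cells reached 579 and 383 CPM, within the range of FS cells. In AFX6 and AF32 the highest 10% of cells held 80.4% and 81.4% of all Trib3 counts, against 30.8% and 34.7% in the FS lines.

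Chac1 was over 10 CPM in 76.7% and 70.0% of 5ar1 and 5ar2 cells and in 9.09% and 18.8% of AFX6 and AF32 cells. Both genes were over 10 CPM in 65 cells of 5ar1, out of 72 with Trib3 and 69 with Chac1, and in 60 cells of 5ar2, out of 75 and 63. In AFX6 it was 5 cells, out of 14 with Trib3 and 6 with Chac1, and in AF32 12 cells, out of 15 and 15. Atf3 was over 10 CPM in 71.1% of cells of each FS line and in 30.3% and 23.8% of AFX6 and AF32 cells. Ddit3, whose line sums overlapped, was over 10 CPM in 52.2% and 65.6% of FS cells and in 48.5% and 35.0% of AFX6 and AF32 cells, and 1 AFX6 cell reached 817 CPM.

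Sesn2 was present in 97.8% and 95.6% of FS cells at over 10 CPM and in 60.6% and 48.8% of AFX6 and AF32 cells. The deficit of Cth in AF32 was a deficit of cells too: 45.0% of AF32 cells had over 10 CPM, against 84.8% in AFX6 and 96.7% and 100% in 5ar1 and 5ar2. Slc7a5 was over 10 CPM in 50.0% of AFX6 cells, 85.0% of AF32 cells and 97.8% and 98.9% of FS cells, whereas its partner Slc3a2 was over 10 CPM in 100% of cells of both EpiSC lines. Slc7a1 was over 10 CPM in 64.4% of cells of each FS line, 31.2% in AF32 and 3.03% in AFX6. Slc7a11 had counts in all 326 cells, with lowest values of 2.82 to 5.26 CPM in the 4 lines, so it varied about a low floor and was never absent.

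**Figure D3:**
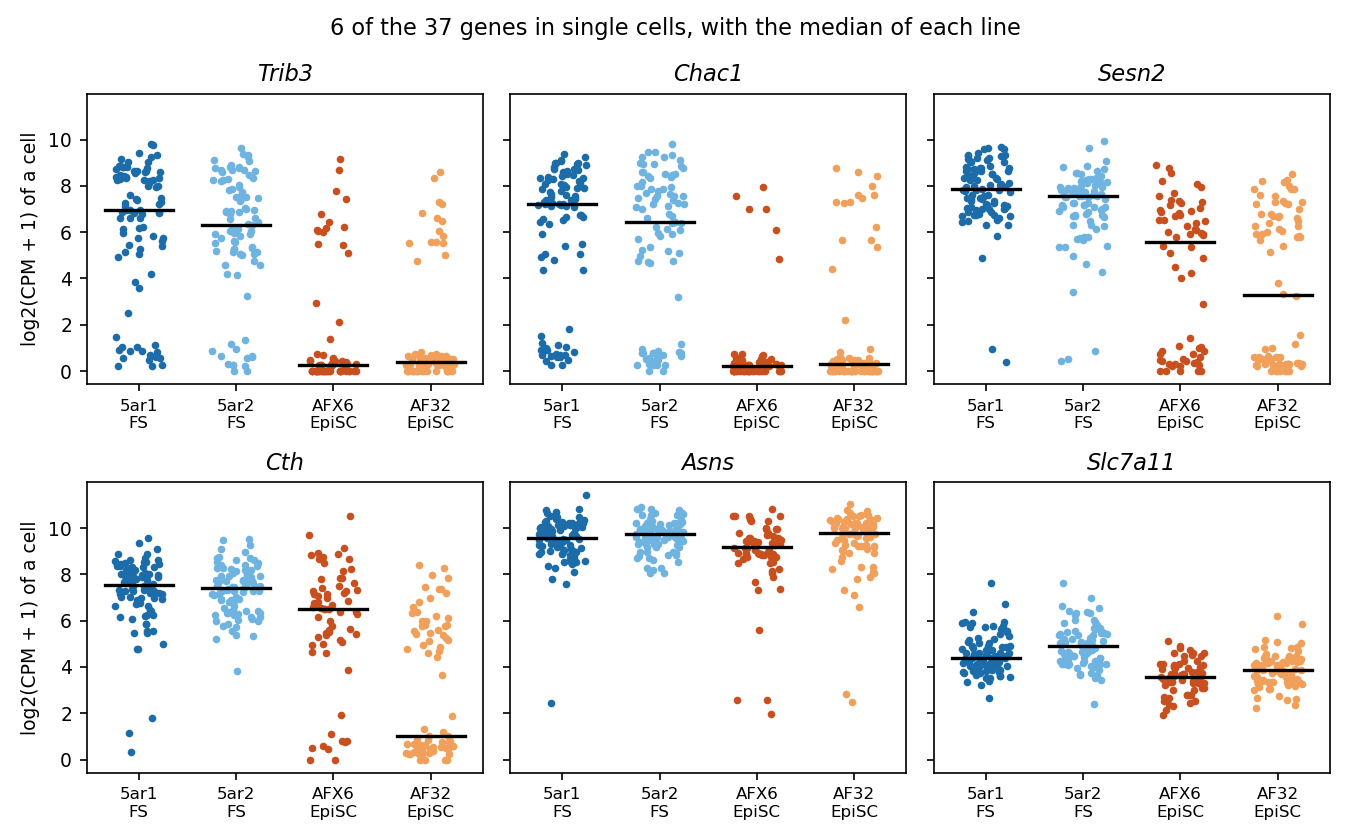
Levels of 6 members in single cells of each line, as log2(CPM + 1), with a bar at the line median. Trib3 and Chac1 fall mostly into cells near 0 and cells spread over 4, with a few between. Most FS cells are above and most EpiSC cells below. Cth shows a like split within AF32, Asns is high in nearly all cells, and Slc7a11 is low and present in every cell.

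As a summary over the list, each cell was given a score, the mean of log2(CPM + 1) over the 37 members. The line medians were 6.46 and 6.36 for the FS lines 5ar1 and 5ar2, and 4.62 and 5.06 for the EpiSC lines AFX6 and AF32. The FS mean of line medians exceeded the EpiSC mean by 1.57, against a pooled SD between lines of a kind of 0.225. The ranges of the kinds overlapped widely. Scores ran from 3.33 to 7.74 and 4.34 to 7.75 in the FS lines and from 2.62 to 7.22 and 2.26 to 6.89 in AFX6 and AF32. Within the range of the other kind lay 74 of 90, 80 of 90, 61 of 66 and 75 of 80 cells of 5ar1, 5ar2, AFX6 and AF32. Only 3 and 2 cells of 5ar1 and 5ar2 lay below the EpiSC median, and 1 and 3 cells of AFX6 and AF32 lay above the FS median.

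The number of genes detected in a cell moved with the score in EpiSCs, with a Spearman rho of 0.55 in AFX6 (66 cells) and 0.57 in AF32 (80 cells), and hardly in FS cells, at 0.04 and 0.05 (90 cells each). FS cells also had more genes detected. Among cells with 10000 to 11000 genes detected, the median scores were 6.60 (15 cells), 6.09 (16 cells), 4.62 (34 cells) and 5.25 (57 cells) in 5ar1, 5ar2, AFX6 and AF32. Among cells with 11000 to 12000 they were 6.42 (68 cells), 6.41 (62 cells), 5.43 (11 cells) and 5.56 (5 cells). The FS lines stood higher in both of these ranges, by less in the upper one. Between 9000 and 10000 genes, the only FS cell, of 5ar1, scored 3.33, below the medians of 4.32 in AFX6 (21 cells) and 4.24 in AF32 (17 cells). Thinning every cell to 1000000 counts, which sets totals equal but does not match cells by genes detected, left the score difference at 1.59.

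**Figure D4:**
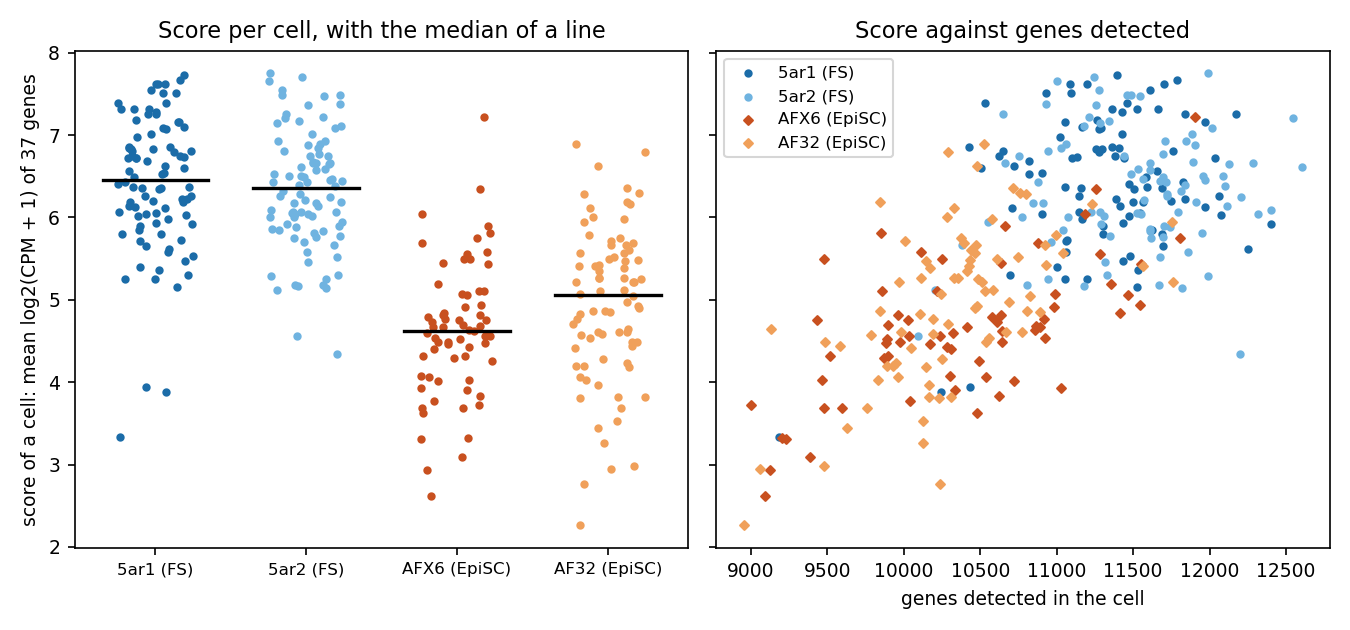
Score of each cell, the mean log2(CPM + 1) of the 37 members, by line with the line median (left), and against the number of genes detected in the cell (right). FS medians of 6.46 and 6.36 stand above EpiSC medians of 4.62 and 5.06, and the score climbs with genes detected among EpiSCs.

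Within a line, members varied together from cell to cell. For the 32 members with a mean of at least 10 CPM over kept cells, there were 496 pairs, whose median Spearman rho was 0.30 and 0.32 in the FS lines, 0.16 in AFX6 and 0.25 in AF32. The median over all pairs of genes at that level lay between 0.006 and 0.025. A rho over 0.3 was found for 51.2%, 53.8%, 17.9% and 37.7% of member pairs, against 0.546%, 0.604%, 2.04% and 0.973% of all pairs in the same lines. Given the number of genes detected, the medians of members were 0.31, 0.33, 0.13 and 0.18. These are descriptions over cells of 1 line each, and the cells of a line share its medium.

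By role, the 5 serine and one-carbon genes were the most coherent, with median rho values of 0.47, 0.52, 0.32 and 0.47 in 5ar1, 5ar2, AFX6 and AF32. The feedback and stress effectors were coherent in FS cells, at 0.44 and 0.38. Their values were lower in EpiSCs, at 0.12 and 0.21, where Trib3 and Chac1 were near the floor in most cells. The regulators were at 0.24, 0.18, 0.04 and 0.13, and the synthetases with Xpot near 0.3 in each line. The transporters did not form a group in 5ar1, at 0.08, where Slc7a3 and Slc7a11 had rho values of -0.03 and 0.00 with the mean of the other members. Slc7a3 reached 0.20 in 5ar2, 0.38 in AFX6 and 0.51 in AF32.

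Against the mean of the other members, Slc3a2, Mthfd2 and Asns stood highest over the 4 lines, with mean rho values of 0.67, 0.67 and 0.65. The line sums of Slc3a2 and Asns overlapped between the kinds. Within single lines the order differed from that of the mean. Trib3 was highest in both FS lines, Slc3a2 in AFX6 at 0.61 and Nars in AF32 at 0.80. In 5ar2 Slc3a2 was at 0.64, below Trib3 and several other members. Trib3 reached 0.85 and 0.81 in the FS lines and 0.36 and 0.26 in AFX6 and AF32, where it was near the floor in most cells. Atf4 was at 0.67, 0.71, 0.40 and 0.57. Ddit4, the member lower in FS cells, still varied with the rest inside FS lines, at 0.74 and 0.55, against 0.13 and 0.06 in AFX6 and AF32. Slc7a11 was lowest, at 0.00, 0.16, 0.20 and -0.28, although its promoter holds 2 matches to the motif.

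Among single pairs, the order was not that of members against the rest of the list. Asns and Gars had a rho of 0.74, 0.68, 0.59 and 0.65 in the 4 lines, the highest mean of all pairs, and Psat1 and Asns 0.58, 0.50, 0.54 and 0.71. Trib3 and Chac1 reached 0.72 and 0.75 in FS cells and 0.42 and 0.27 in EpiSCs. Atf4 and Trib3 were at 0.62, 0.71, 0.37 and 0.39. Most EpiSC cells held Trib3 and Chac1 near the floor, with line medians of 0.180 to 0.305 CPM, where 1 count is about 0.2 CPM. Ranks among such cells rest on few counts, which limits the EpiSC values of both pairs. The chains of the LAT1 exchanger, Slc7a5 and Slc3a2, were at 0.51, 0.49, 0.39 and 0.64.

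**Figure D5:**
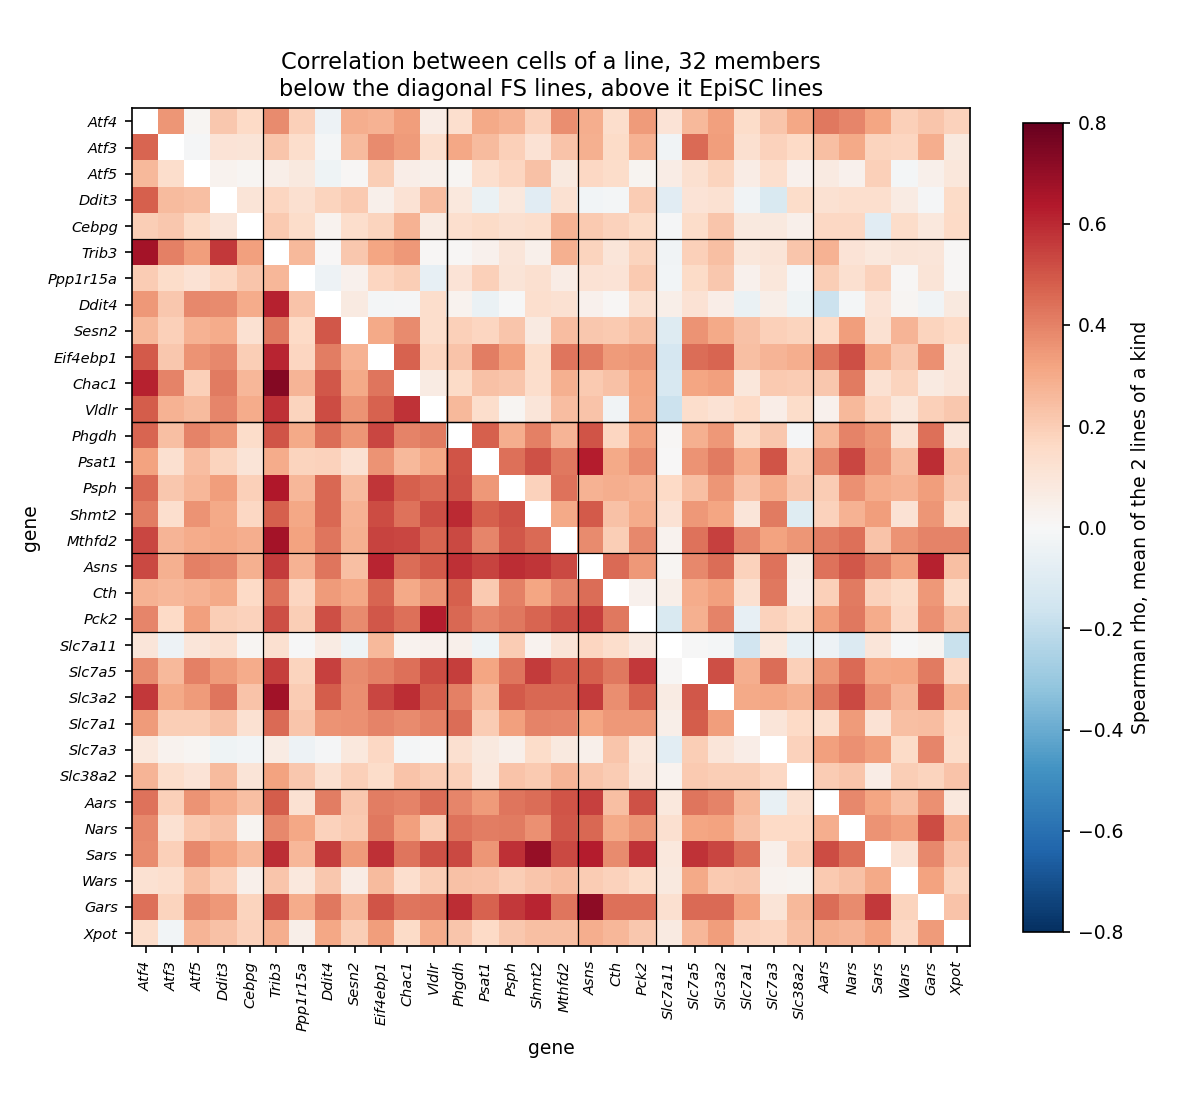
Spearman rho between the 32 members of at least 10 CPM over the cells of a line, averaged over both FS lines below the diagonal and over both EpiSC lines above it; red is positive, blue negative, and lines part the roles. Red fills most of the lower triangle, the upper one is paler, and Slc7a11 is pale in both, Slc7a3 only in the lower.

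Of 7004 genes outside the list with a mean of at least 20 CPM, those whose levels followed the score of the 37 members most closely over cells were Lars, Eprs, Slc1a4, Hax1 and Slc1a5. Lars and Eprs encode further tRNA synthetases, Slc1a4 and Slc1a5 neutral amino acid transporters, and Hax1 a mitochondrial protein that protects from cell death. Their mean rho values over the 4 lines ran from 0.50 for Lars to 0.48 for Slc1a5, against a median of 0.053 over the 7004 genes. The lowest were Rpl37a, Uqcrh, Rps26, Rps21 and Cox7a2, at -0.44 to -0.37. Given the number of genes detected, the highest were Eprs, Slc1a5, Lars, Hax1 and Phf10, and the lowest Uqcrh, Supt4a, Cstb, Rpl37a and Marcks, so that 4 of the 5 highest genes but only Uqcrh and Rpl37a of the lowest were shared.

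Related pathways, chosen as lists for comparison, divided. Of all 10088 genes at 10 CPM in a line, 27.0% stood higher in both FS lines and 27.9% lower. Of 15 other cytosolic tRNA synthetase genes, 12 stood higher in both FS lines and 1 lower (Qars), and their mean level varied with the members in every line, with rho values of 0.56, 0.49, 0.68 and 0.81. Tars was at 448 and 450 CPM in FS cells and 152 and 139 in EpiSCs, 3.09-fold apart. Of 14 other genes of the folate and methionine cycles, 7 stood higher and 2 lower. The largest difference there was Mat2a, which makes S-adenosylmethionine, at 956, 785, 157 and 247 CPM. None of these genes passed the edgeR test.

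The unfolded protein arm of the endoplasmic reticulum showed a mixed order. Of 19 chaperone arm genes at 10 CPM, 8 stood higher in both FS lines, 2 lower and 9 overlapped. Of all genes at that level, 27.0% stood higher and 27.9% lower. The chaperone gene Hspa5 was at 1026, 889, 769 and 690 CPM, while Calr was higher in EpiSCs, at 292 and 267 CPM against 519 and 401. Over cells, the mean of this list against the members had a rho of -0.17 and -0.01 in FS lines and 0.54 and 0.55 in EpiSC lines, where genes detected also moved with the score; given genes detected, it was -0.19, -0.01, 0.39 and 0.46. Of the 10 genes of eIF2 kinases and eIF2 or eIF2B subunits, 7 stood higher in FS cells and 2 lower. The shares of all genes were again 27.0% and 27.9%, and none of the 10 passed the edgeR test. The 4 kinase genes were split. Eif2ak1 (HRI), which answers to haem deficiency, was at 64.4 and 52.1 CPM in FS cells against 30.3 and 40.7 in EpiSCs. Eif2ak2 (PKR), which answers to viral RNA, was at 14.3, 4.79, 3.33 and 12.4 CPM and overlapped. Eif2ak3 (PERK) and Eif2ak4 (GCN2), which answer to unfolded protein and to uncharged tRNA, were lower in both FS lines, at 6.55 and 5.09 CPM against 9.50 and 12.0, and at 24.1 and 19.1 against 46.0 and 27.3.

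NRF2, the regulator of the oxidative stress response, shares Slc7a11 with ATF4. Of 9 genes listed as NRF2 targets, which include the NRF2 gene Nfe2l2, 7 stood higher in FS cells and 0 lower. Txnrd1 was at 503, 464, 200 and 121 CPM. Among all genes at 10 CPM, 27.0% stood higher in both FS lines and 27.9% lower. Over cells, the mean of 8 of the NRF2 list genes did not follow the members in FS lines. Its rho with them was -0.32, -0.13, 0.35 and 0.60 in 5ar1, 5ar2, AFX6 and AF32. Given genes detected, these were -0.35, -0.14, 0.08 and 0.47. Of 8 immediate early genes at 10 CPM, which respond within minutes to handling and to growth factors, 0 stood higher in both FS lines and 6 lower. Jun was at 25.9 and 46.9 CPM in FS cells and 90.9 and 130 in EpiSCs, and Egr1 at 20.1 and 37.6 against 66.7 and 163. Their mean varied little with the members over cells, with rho values of -0.07, 0.01, 0.23 and 0.07.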

How the data were processed

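The deposited table holds raw read counts per gene for 384 cells. According to the methods and the submitters' processing notes, the authors aligned reads with STAR 2.7.3a to GRCm38.p6 and counted uniquely mapped reads with featureCounts 2.0.0 on Ensembl annotation. A second deposited table holds sctransform values, treated as a score, for 326 cells, and was used only as an alternative. Cells with at least 3000000 counts were kept, counts were summed per line, and CPM are relative to total counts. Symbols, positions and exon lengths came from GENCODE M21, with 52 genes unmatched. Tests used edgeR 4.0.16 (TMM, filterByExpr), with DESeq2 1.42.0 and limma 3.58.1 as alternatives in R 4.3.3, and were tested on simulated data. Correlations are Spearman's rho, also given the number of detected genes (scipy 1.17.1).

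The members and comparison lists were chosen with earlier results of these data known. All members are named, by role; outside genes are the 5 highest and 5 lowest in correlation, and list genes named with values are examples chosen after their values were seen. Counting without strand or molecular identifiers lets amplified reads and overlapping genes weigh in: 10 members share exon bases with another gene, and 4 of them (Aars, Aldh1l2, Cebpb, Psph) over 10% of theirs.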

Additional observations from a re-analysis of the deposited data

How the results depend on the processing

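No paired analysis was possible because the numbers in the sample titles name cells, and lines share no replicate. The fitted direction of all 37 members held under DESeq2 size factors in edgeR, the DESeq2 Wald test, no filter on low counts, depth limits of 2000000 and 4000000 counts, thinning, leaving out cells with few detected genes, and leaving out either FS line. With a line left out, the log2 fold change ran from -0.14 (without AF32) to 0.87 for Ddit3, from -0.25 (without AF32) to 0.79 for Ppp1r15a, and from -1.16 to 8.45 for Fgf21, whose EpiSC counts without AFX6 come to 1; limma gave 0.014 for Fgf21. The log2 fold change reached 1.45 for Vldlr, 1.87 for Aldh1l2 and 9.55 for Nupr1 without AF32, where the EpiSC counts of Nupr1 come to 2, and fell to 0.16, 0.15 and 2.54 without AFX6; for Gdf15 it ran from -2.26 to -0.98. The DESeq2 Wald test called 1808 genes where edgeR called 0; the cause was not tested. Every other setting called 0 genes, with smallest adjusted p-values from 0.0971 (limma) to 0.751. The median log2 fold change of members was 1.39 with limma, and between 0.93 and 1.29 when a line was left out, highest without AF32. The score difference of 1.57 became 1.96 with a pseudocount of 0.1, 1.04 with 10, 1.83 on the normalized values, 0.689 as a mean of Z-scores (in SD units) and 1.84 over members of at least 10 CPM; these scales differ by construction, and FS medians stayed above EpiSC medians in each. The 26 members with both FS lines above both EpiSC lines numbered 26 to 30, of 32 or 33 at 10 CPM, under alternatives chosen after the data were seen (depth limits, thinning, few detected genes, mean of CPM per cell, TMM). Of the 7 members over 2-fold between AF32 and AFX6, 5 to 7 stayed so under each alternative. At this depth a count of 0 in a line allows up to 0.00902 CPM.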
